A study of Mus musculus with 8 samples.

Results

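CD8 T cells of the same clone were compared between the liver and the spleen of EomesTG mice, which carry an Eomes transgene on both alleles (EomesTg/Tg). A clone was defined by the V segment, J segment and CDR3 nucleotide sequence of its most abundant productive T cell receptor beta (TRB) and alpha (TRA) chain. In all, 28 clones were found in both organs, of 1024 clones in liver and 4076 in spleen. They held 406 liver cells, which is 12.5% (exact 95% binomial interval 11.4 to 13.7) of the 3253 liver cells with a clone. They held 67 spleen cells, which is 1.61% (1.25 to 2.04) of the 4157 spleen cells with a clone. These 473 cells come from 18732 cells in the whole series that had 500 or more unique molecular identifiers (UMIs), 300 or more detected genes and less than 10% of UMIs from mitochondrial genes.

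The 4 groups of the series are CD8 T cells of EomesTG liver, EomesTG spleen, wild-type (WT) liver and WT spleen, the WT mice being C57BL/6. The animals' age, and the promoter that drives the transgene, are not given in the sources used here. Cells of 3 mice per strain were pooled before CD8+ T cells were sorted, and each genotype and organ gave 1 RNA library and 1 receptor library. Liver and spleen cells of EomesTG mice therefore come from the same 3 pooled animals, and a clone cannot be assigned to 1 of them. With 1 library per organ, no difference was tested against the spread between mice. Organ, preparation of the suspension and library cannot be told apart, and all 95% intervals cover counting error only.

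Each T cell assembles its receptor genes by joining V, D and J segments, with bases lost and added at the joints, so that a shared pair of TRB and TRA sequences marks descent from 1 ancestor. Clones found in several organs are a standard way to follow how 1 lineage differs between sites. Eomes belongs to the T-box family of transcription factors and is known from cytotoxic and memory CD8 T cells and NK cells. In liver, CD8 T cells that stay in the tissue are known for the chemokine receptor CXCR6, while recirculating cells use the receptor S1PR1 to leave tissues.

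The receptor sequences that define the clones with the most cells are given here, since these clones carry much of the weight of the comparison. Each is the CDR3 in DNA letters, 5′ to 3′. Capitals mark bases that match neither the V nor the J segment in GENCODE M21 transcripts, a stretch that can hold D segment bases and bases added at the joints. The TRB genes lie on chromosome 6 and the TRA genes on chromosome 14. Clones 1 and 2, the largest, carry an identical TRB chain built from TRBV12-1 (chr6:41113550-41114067, forward strand, GRCm38) and TRBJ2-5, and differ in their TRA chain:
Clone 1 and clone 2 TRB: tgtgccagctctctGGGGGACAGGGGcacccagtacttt
Clone 1 TRA (TRAV13-1, TRAJ31): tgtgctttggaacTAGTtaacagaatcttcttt
Clone 2 TRA (TRAV9-4, TRAJ35): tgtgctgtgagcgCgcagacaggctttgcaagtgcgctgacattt
Clones 4 and 6 are the other clones with at least 5 cells in each organ, and clone 10 is the clone with the strongest weight toward spleen:
Clone 4 TRB (TRBV12-2+TRBV13-2, TRBJ2-5): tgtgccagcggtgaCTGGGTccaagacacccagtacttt
Clone 4 TRA (TRAV7-6, TRAJ45): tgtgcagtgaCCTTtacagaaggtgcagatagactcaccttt
Clone 6 TRB (TRBV3, TRBJ1-1): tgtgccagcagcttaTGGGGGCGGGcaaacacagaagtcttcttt
Clone 6 TRA (TRAV13-2, TRAJ13): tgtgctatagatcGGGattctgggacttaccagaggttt
Clone 10 TRB (TRBV16, TRBJ1-1): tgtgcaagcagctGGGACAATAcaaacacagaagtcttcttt
Clone 10 TRA (TRAV12D-2, TRAJ26): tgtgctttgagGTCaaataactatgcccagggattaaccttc

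Over the 28 clones, the unmatched stretch had a median of 9.5 bases (1 to 15) in TRB and 4.0 bases (0 to 8) in TRA. Many cells of clones 1 and 2 carried both of their TRA chains. Of the 233 liver cells of clone 1, 101 also carried the TRA chain of clone 2, and of the 75 liver cells of clone 2, 46 also carried that of clone 1. In spleen, 3 of the 8 cells of clone 1 and 4 of the 6 cells of clone 2 carried both chains. Of all 325 liver cells with this TRB chain, 176 carried the TRA chain of clone 2, and 147 carried both TRA chains. A T cell can rearrange both of its TRA alleles, and whether these are 1 lineage or 2 was not tested. If they are 1, counts over the 28 clones include that lineage 2 times. With the pair merged, 27 shared clones remained, holding the same 406 liver and 67 spleen cells. Counts are also given without the pair.

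The shared clones were far from equal in size. Clone 1 had 233 liver cells and 8 spleen cells, and clone 2 had 75 and 6. Together they made up 75.9% of the liver cells but 20.9% of the spleen cells compared, and they ranked 3 and 5 by size among the liver clones. Clone 4 had 7 liver and 10 spleen cells, clone 6 had 7 and 5, and clone 10 had 1 and 7. In 15 clones there were more liver cells, in 5 more spleen cells, and in 8, each with 1 cell per organ, the numbers were equal. The median clone had 2 liver cells and 1 spleen cell.

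**Figure D1:**
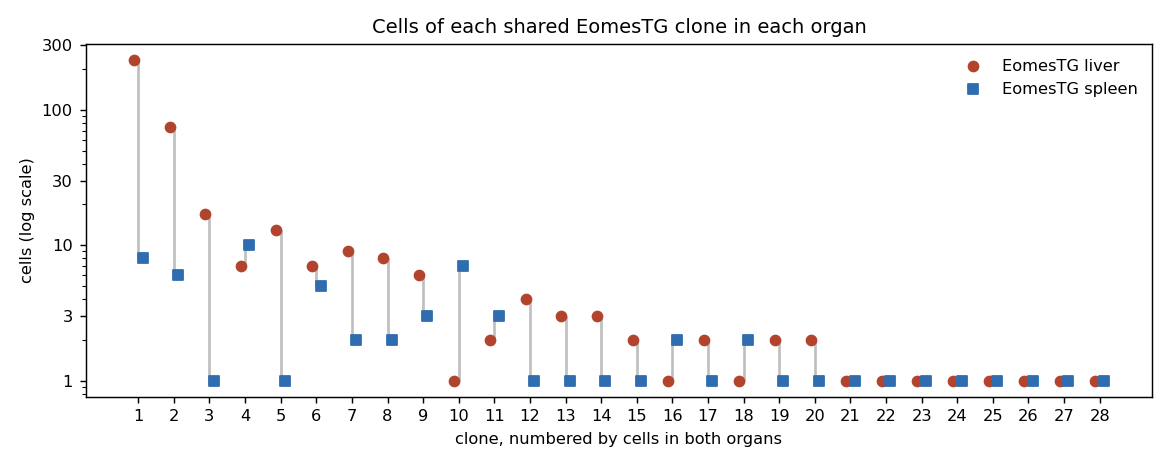
Cells of each of the 28 shared EomesTG clones in liver (circles) and spleen (squares), on a log axis, with clones numbered by their total. Clones 1 and 2 have 233 and 75 liver cells, and no clone has more than 10 spleen cells.

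The receptors used 13 TRBV, 10 TRBJ, 21 TRAV and 14 TRAJ segments, so no single segment marked the shared clones. Their CDR3 had a median of 42 nucleotides in both chains, as did the CDR3 of clones found in liver only and in spleen only. TRAJ32 (chr14:54186101-54186166, forward strand) was used by 4 of 28 shared clones, or 14.3% (exact 95% interval 4.03 to 32.7), against 2.81% (1.88 to 4.04) of liver-only and 2.92% (2.42 to 3.48) of spleen-only clones. TRAJ49 was used by 5 of 28 (17.9%), against 7.83% and 6.18%. Both segments were singled out after the values were seen. None of the 28 clones occurred in a WT library.

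The cells compared held 1764202 UMIs in liver and 274367 in spleen, with medians of 3882 and 3760 UMIs and of 1519 and 1502 genes per cell. Mitochondrial UMIs were lower in liver cells (median 1.23% against 2.48%), as in the cells of clones of 1 organ (1.59% against 2.80%). The 10 CD8 T cell markers summed to 9201 CPM (a gene's UMIs scaled to the same total in each group of summed cells) in liver and 8984 CPM in spleen, with 0 UMIs of Cd4 in both. All markers of hepatocytes, erythrocytes, platelets and innate-like T cells were at 0 in both organs. B cell markers summed to 1.70 against 7.29 CPM, myeloid markers to 17.0 against 36.4, endothelial markers to 1.70 against 0, NK cell markers to 3.40 against 10.9 and CD4 T cell markers to 51.6 against 76.5. The dendritic cell list, which is mostly MHC class II genes, summed to 45.3 against 117 CPM, and the gamma-delta list to 121 against 18.2 with Trdc at 0 in both. Barcodes of 37 cells occurred in both EomesTG libraries, 5 of them in shared-clone liver cells, and none carried the same clone in both.

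In the summed cells, liver members of the shared clones had more RNA of granzyme A, of the liver-homing receptor gene Cxcr6, and of heat shock, immediate early and cell cycle genes. They had less of Xcl1, Il7r and Tcf7. Not all of this held for other weights of the clones. Without clones 1 and 2 the log2 ratio of Xcl1, liver over spleen, was −0.11, and with each clone counted once that of Il7r was 0.02. A gene was called where the organs differed by at least 1.5-fold with the interval of the ratio on that side of equality. Of the 4868 genes with at least 50 UMIs over both organs, 332 (6.82%) were called higher in liver and 312 (6.41%) lower, so that 51.6% of the calls were higher. With organs scaled by the median of ratios this share was 66.1%, and with receptor, mitochondrial and ribosomal genes left out of the totals it was 41.2%. Without clones 1 and 2, 145 of 1921 genes (7.55%) were higher and 73 (3.80%) lower. With each clone counted once, whatever its size, 976 genes (20.0%) were at least 1.5-fold higher and 951 (19.5%) lower. That measure has no interval, and it rests on few cells in most clones. Summed levels also do not tell more cells with a gene's RNA from more RNA per cell.

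Gzma (chr13:113093825-113100981, reverse strand), a granzyme of cytotoxic granules, was at 5316 CPM (95% interval 5209 to 5424) in liver and 269.7 CPM (212 to 339) in spleen. Its log2 ratio of liver over spleen was 4.30 (3.97 to 4.65), and 2.03 with each clone counted once. The counted-once ratio was 1.67 with clones 1 and 2 merged. The difference lay in a minority of clones: 11 had more Gzma RNA in liver and 2 in spleen, and 15 had none in either organ. Clones 1 and 2 were at 6475 and 7106 CPM in liver against 386 and 209.7 CPM in spleen. Without them, the other clones were at 1511 CPM in liver and 261 CPM in spleen (2.53, 2.14 to 2.94). In clone 5, liver cells were at 5837 CPM and the 1 spleen cell had none. Of the 74 spleen UMIs of Gzma, 47 came from 1 cell. At least 1 UMI was seen in 269 of 406 liver cells (66.3%) and 8 of 67 spleen cells (11.9%). With every cell thinned to 2000 UMIs, which left out 22 liver and 7 spleen cells, the shares were 62.2% (57.2 to 67.1) and 10.0% (3.76 to 20.5). Cells of naive phenotype in the same libraries (UMIs of Ccr7 and Lef1 and none of Ccl5 and Cxcr3) were taken as a guide to the level that free RNA gives, which was not measured itself. Since they were required to lack Ccl5 UMIs, they may understate it. Their shares after thinning were 2.76% in liver and 1.26% in spleen, at unthinned median depths of 5430.5 and 4644 UMIs.

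Cxcr6 (chr9:123806475-123811760, forward strand) was at 397 CPM (368 to 427) in liver and 54.7 CPM (30.6 to 90.2) in spleen, a log2 ratio of 2.86 (2.13 to 3.70). With each clone counted once the ratio was 2.01, with 14 clones higher in liver, 3 higher in spleen and 11 at 0 in both. After thinning, a Cxcr6 UMI was found in 46.9% (41.8 to 52.0) of liver and 13.3% (5.94 to 24.6) of spleen cells, against 2.76% and 0.420% of naive-phenotype cells. Clone 6 had 277 CPM in liver and 38.4 CPM in spleen, while clone 4 had 1 UMI in each organ. In clone 1 it was at 458 CPM in liver and 211 CPM in spleen, with an interval of the log2 ratio that reached 0 (1.12, −0.01 to 2.57).

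Of the 14 tissue residency genes, 9 could be compared, 6 of them called higher in liver and 1 lower, and their median log2 ratio was 2.38 against −0.01 over all genes. Besides Cxcr6, the genes called higher were Rgs1 (2.38), a brake on chemokine receptor signalling, and Ahr (3.74, on 1 spleen UMI), the aryl hydrocarbon receptor gene. The others were Rgs2 (93.5 CPM in liver, 10.9 in spleen), Chn2 (2.91, on 5 spleen UMIs) and Prdm1, which encodes the repressor Blimp-1. Prdm1 had 2.07 (0.47 to 4.38) and, like Rgs2, a spleen level of 10.9 CPM, which is that of 3 UMIs. Without clones 1 and 2, 4 genes of the list could be compared, 2 of them called higher and 0 lower, against 7.55% and 3.80% of all genes. Rgs1 was at 1194 CPM in liver and 229.6 CPM in spleen and was higher in liver in 21 clones and in spleen in 4. Xcl1 was the member called lower. Cd69, the classical surface marker of residency, was at 228 CPM in liver and 219 CPM in spleen, and more clones had the higher level in spleen (16) than in liver (10). Bhlhe40, a transcription factor of tissue T cells, was at 404 CPM in liver and 94.8 CPM in spleen (2.09, 1.53 to 2.71), and at 479 and 80.5 CPM with each clone counted once.

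Of the gene lists, heat shock and immediate early genes were higher in liver in the most clones. These genes are known to be induced by stress, stimulation and tissue dissociation. All 11 heat shock genes were called higher in liver (median log2 ratio 2.02), as were 11 of 14 immediate early genes (median 1.43). Over all genes, 6.82% were called higher. The summed level was higher in liver in 27 of 28 clones for each list. Without clones 1 and 2, 9 of 10 heat shock and 12 of 13 immediate early genes were called higher, against 7.55% of all genes. The heat shock sum ran from 3880 to 17167 CPM over the clones in liver, with a median of 11467, and from 1757 to 7341 CPM in spleen, with a median of 4720. Hspa1a (chr17:34969190-34972156, reverse strand), an inducible HSP70 gene, was at 2188 CPM in liver and 124 CPM in spleen (4.14, 3.66 to 4.67), and 24 clones were higher in liver and 2 in spleen. Hspa1b, a near-identical neighbour whose reads may be exchanged with it, had 3.82 (3.14 to 4.61). Dnajb1, an HSP40 cochaperone gene, was at 1763 CPM in liver and 124 CPM in spleen.

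Junb (chr8:84974484-84978718, reverse strand), a subunit of the transcription factor AP-1, was at 2424 CPM in liver and 510.3 CPM in spleen. It was higher in liver in 27 clones, as was Hspa8, the constitutive HSP70 gene, at 4133 CPM in liver and 1932 CPM in spleen. Jund (1847 CPM in liver, 510.3 in spleen) and the ubiquitin gene Ubb (5878 in liver, 3353 in spleen) were higher in liver in 26 clones each. Fos had a log2 ratio of 3.38 and Dusp1, a phosphatase gene that restrains MAP kinases, 3.23. Both lists were higher in liver outside the shared EomesTG clones as well. In EomesTG clones of 1 organ, 9 of 11 heat shock and 12 of 15 immediate early genes were higher in liver, where 22.4% of all genes were. In shared WT clones, 5 of 10 and 13 of 13 were higher, where 7.34% of all genes were. Organ and handling of the suspension cannot be told apart for them.

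**Figure D2:**
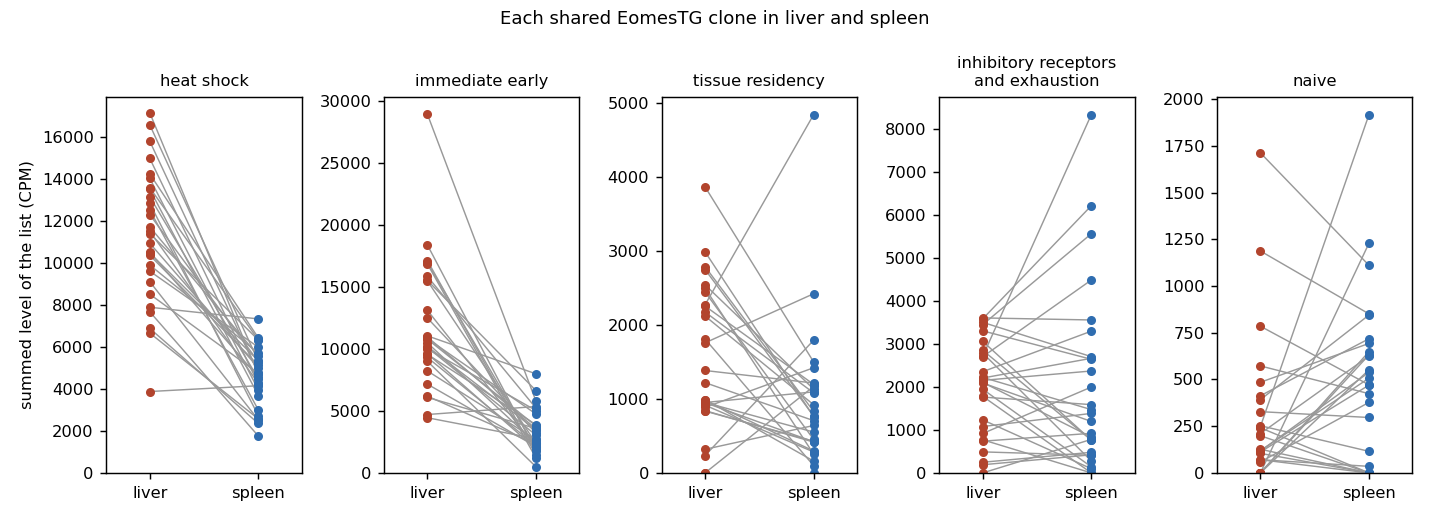
Summed CPM of 5 gene lists in each of the 28 shared EomesTG clones, with liver on the left, spleen on the right and a line per clone. Heat shock and immediate early sums are higher in liver in 27 clones each, while the lines of the inhibitory receptor list cross, 15 clones being higher in liver and 13 in spleen.

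Inhibitory receptor genes were detected in the shared clones in both organs, with levels that differed between clones. Pdcd1 (chr1:94038305-94052553, reverse strand), which encodes the receptor PD-1, was at 462 CPM (431 to 495) in liver and 309.8 CPM (247 to 383) in spleen. The log2 ratio of 0.58 (0.25 to 0.92) did not reach 1.5-fold, and with each clone counted once it was −0.83, at 182 CPM in liver and 325 CPM in spleen. More clones had the higher level in spleen (14) than in liver (9). In clone 1, Pdcd1 was at 583 CPM in liver and 1229 CPM in spleen, a ratio of −1.08 (−1.57 to −0.54), and in clone 2 it was at 536 and 545 CPM. Without these clones it was at 142 CPM in liver and 167 CPM in spleen (−0.23, −0.84 to 0.39). A Pdcd1 UMI was found after thinning in 55.7% (50.6 to 60.8) of liver and 35.0% (23.1 to 48.4) of spleen members, against 1.11% of spleen cells of spleen-only clones and 0.168% of naive-phenotype spleen cells.

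Of 13 inhibitory receptor and exhaustion genes compared, 8 were called higher in liver and 0 lower, and the median log2 ratio was 0.75. Over all genes, 6.82% were called higher and 6.41% lower. Without clones 1 and 2, 3 of 8 genes of the list were higher and 0 lower, against 7.55% and 3.80% of all genes. With each clone counted once, 3 of the 13 were at least 1.5-fold higher and 4 lower, with a median of 0.34. That measure put 20.0% of all genes higher and 19.5% lower. Ctla4, an inhibitory receptor gene, had the highest ratio of the list, 2.14 (1.32 to 3.11), at 193 CPM in liver and 43.7 CPM in spleen. Its ratio was 1.07 (0.11 to 2.17) without clones 1 and 2, still called higher. Tox, a transcription factor of exhausted cells, had 0.85 (0.51 to 1.21), but 0.12 (−0.39 to 0.65) and no call without clones 1 and 2. Cd160, a coreceptor gene, had 0.78 (0.37 to 1.22), and 0.71 without that pair. With each clone counted once and the pair merged, the ratios were 0.81 for Ctla4, 0.46 for Tox and 0.33 for Cd160. Lag3 was at 367 CPM in liver and 335 CPM in spleen, and Havcr2, which encodes TIM-3, at 47.0 and 32.8 CPM. Nr4a2, a nuclear receptor gene, had 0.63, but 43 of its 79 spleen UMIs came from 1 cell, and its ratio was 1.49 without clones 1 and 2.

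Eomes itself (chr9:118478212-118486132, forward strand) did not differ beyond counting error in the summed cells, at 218 CPM (197 to 241) in liver and 241 CPM (186 to 306) in spleen, a log2 ratio of −0.14 (−0.52 to 0.26). It was higher in liver in 10 clones and in spleen in 13. In clone 1 it was lower in liver, at 244 against 527 CPM (−1.11, −1.86 to −0.25). Transgene and endogenous transcripts were not told apart.

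Other effector genes were called in both directions, and those named here as higher in liver had smaller ratios than Gzma. Of 12 cytotoxic effector genes, 5 were called higher and 3 lower (median log2 ratio 0.27), against 6.82% and 6.41% of all genes. Without clones 1 and 2, 4 were higher and 0 lower, against 7.55% and 3.80% of all genes. Ifng, the interferon-gamma gene, was at 557 CPM in liver and 168 CPM in spleen (1.73, 1.31 to 2.19), and Gzmb at 699 and 269.7 CPM (1.37, 1.03 to 1.73). Fasl, a death ligand gene, had 0.99 and Gzmk 0.70. The fractalkine receptor gene Cx3cr1 (−1.65, −2.22 to −1.06), Zeb2 (−1.16) and Klrg1 (−0.97), all known from terminal effector cells, were lower in liver. Cx3cr1 had −0.17 (−0.91 to 0.59) and no call without clones 1 and 2. The chemokine gene Ccl5 was the most abundant of these, at 47362 CPM in liver and 35948 CPM in spleen (0.40), and every liver member and 63 of 67 spleen members had a Ccl5 UMI.

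Cell cycle genes were higher in liver: 10 of 15 were called higher and 0 lower, against 6.82% and 6.41% of all genes. The median log2 ratio of the list was 2.12, and 1.70 with each clone counted once. Of 6 genes that could be compared without clones 1 and 2, 5 were higher, against 7.55% of all genes. The sum of the cell cycle list was higher in liver in 17 clones and in spleen in 9. It was at 2277 CPM in liver and 738 CPM in spleen in clone 1 and at 2836 and 192 CPM in clone 6, but at 889 and 1552 CPM in clone 2 and at 336 and 1051 CPM in clone 4. Cdk1, a mitotic kinase gene, had 109 UMIs in liver and none in spleen. Set against 3 counts over all spleen members, its level in liver was at least 5.65-fold higher, a bound that leaves out the counting error of the liver UMIs. The histone gene Hist1h2ap was at 306 CPM in liver and 10.9 CPM in spleen (4.80, 3.25 to 7.09), and histone genes share much of their sequence. Ube2c had 3.22, Rrm2 3.93 and Birc5 2.95, each on 5 spleen UMIs or fewer. With clones defined by the TRB chain alone, which gave 88 spleen cells, the ratios were 0.84 for Ube2c, 1.87 for Rrm2 and 0.26 for Birc5. These genes were seen in few liver cells (26 to 53 of 406 for Hist1h2ap, Ube2c, Rrm2 and Birc5), and their RNA was above 0 in spleen in 2 or 3 clones.

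Cish, an inhibitor of cytokine and receptor signalling, was at 150.2 CPM in liver and 7.29 CPM in spleen (4.37, 2.50 to 7.42). It was higher in liver in 16 clones and in spleen in 1. Prss2, a trypsin gene, was at 519 CPM in liver and 62.0 CPM in spleen (3.07, 2.38 to 3.85), but it was nearly confined to the pair with the same TRB chain. Clone 1 had 673 CPM in liver and 211 in spleen, clone 2 had 775 and 419, and only clones 5 and 16 had any other UMI, clone 5 at 23.5 CPM in liver and clone 16 at 154 CPM in spleen. EomesTG clones of 1 organ had 2.84 CPM in liver and 2.76 in spleen. Prss2 (chr6:41521787-41525079, forward strand) lies within the TRB locus, between the TRBV12-1 gene used by clones 1 and 2 and the D segment Trbd1 (chr6:41533201-41533212).

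**Figure D3:**
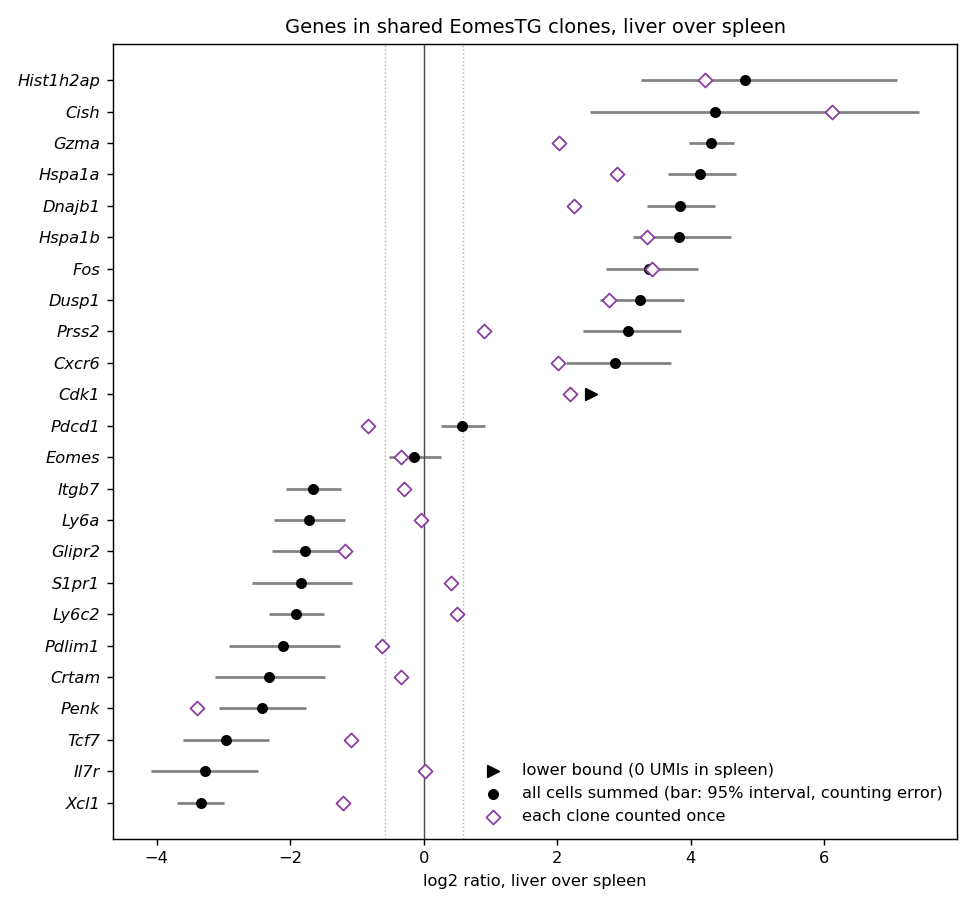
Log2 ratio of liver over spleen for the genes with the strongest bounds in either direction and for Eomes, Pdcd1, Cxcr6, Gzma and S1pr1. Black points with 95% counting intervals sum all cells, and diamonds count each clone once. Dotted lines mark 1.5-fold, and the arrowhead for Cdk1 is a lower bound against 3 spleen counts. Il7r, S1pr1 and Ly6c2 lie below 0 in the summed cells and above 0 with each clone counted once. Leaving out 1 clone could put each of these diamonds below 0.

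Genes lower in liver depended more on which clones were weighed. Il7r, the receptor gene for the survival cytokine IL-7, was at 13.6 CPM (8.72 to 20.2) in liver and 131 CPM (91.9 to 182) in spleen, a log2 ratio of −3.27 (−4.08 to −2.48). With each clone counted once it was at 86.9 CPM in liver and 85.9 CPM in spleen, but clone 10 was at 1468 CPM in its 1 liver cell. Clone 1 had 0 UMIs of Il7r in either organ, and without clones 1 and 2 the ratio was −1.67 (−2.49 to −0.87). Tcf7, which encodes the naive and stem-like factor TCF-1, was at 22.1 CPM in liver and 171 CPM in spleen (−2.95, −3.60 to −2.31). It kept a lower level in liver with each clone counted once (−1.10), with 5 clones higher in liver and 13 in spleen, and without clones 1 and 2 (−1.27). Of the 12 naive genes, 3 had enough UMIs to compare, and all 3 were lower in liver, against 6.41% of all genes. With each clone counted once, 2 of the 3 were at least 1.5-fold lower, against 19.5% of all genes. The sum of the naive list was higher in liver in 12 clones and in spleen in 13.

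S1pr1 (chr3:115710433-115715072, reverse strand) was at 25.5 CPM in liver and 91.1 CPM in spleen (−1.84, −2.57 to −1.07), but at 88.0 and 66.6 CPM with each clone counted once. With 1 clone left out in turn, the counted-once ratio ran from −0.05 to 0.72. In clone 1, S1pr1 was at 12.9 CPM in liver and 140.5 CPM in spleen, on 4 spleen UMIs, and without that clone the ratio of summed cells was −1.01. Of 8 egress and recirculation genes, 5 were called lower and 0 higher (median −0.82), against 6.41% and 6.82% of all genes. With each clone counted once, the median of this list was 0.24. Itga4 was the member lower in liver in most clones. This integrin subunit gene was at 349 CPM in liver and 627 CPM in spleen (−0.85, −1.09 to −0.59), with 23 clones higher in spleen and 5 in liver. The ratio of Itga4 was −0.86 without clones 1 and 2. Its partner gene Itgb7 had −1.66, but −0.64 without that pair and −0.29 with each clone counted once. Itgb1 had −1.14, but −0.37 and no call without the pair, and −0.38 with each clone counted once.

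Other genes with the higher level in spleen in many clones were Rinl (22 clones, log2 ratio −0.62), the splicing factor gene Sf3b6 (21 clones, −0.79), Rasal3 (20 clones, −0.75) and Limd2 (20 clones, −0.67). Ltb, the lymphotoxin beta gene, was at 221 CPM in liver and 528 CPM in spleen (−1.26, −1.54 to −0.97) and was higher in spleen in 19 clones. Glipr2 (−1.77), Pdlim1 (−2.10), Crtam (−2.32), Ly6a (−1.72) and Ly6c2 (−1.91) were also called lower in liver. With clones 1 and 2 left out, the calls of Ltb (−0.56), Limd2 (−0.48), Sf3b6 (−0.33), Ly6a (−0.20) and Ly6c2 (−0.29) were lost, while Rinl (−0.65), Rasal3 (−0.80) and Glipr2 (−1.02) were still called lower. Ly6c2, a surface antigen gene of memory cells, had 0.50 with each clone counted once, but the 1 liver cell of clone 27 was at 6269 CPM. With 1 clone left out in turn, that ratio ran from −0.10 to 0.86.

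Xcl1 (chr1:164931644-164935527, reverse strand), a chemokine gene of activated T cells, had the lowest ratio of the genes singled out by size, at 65.2 CPM in liver and 659.7 CPM in spleen (−3.34, −3.69 to −2.99). Of its 181 spleen UMIs, 117 came from 1 cell of clone 1, and only 10 spleen members had a UMI. Clone 2 had 13.1 CPM in liver and 629 in spleen, and clone 4 had 84.0 and 559. Clone 6 went the other way, at 208 CPM in liver with 0 UMIs in spleen. Over all clones, 8 were higher in liver and 9 in spleen. Without clone 1 the ratio was −1.04, and without clones 1 and 2 it was −0.11 (−0.63 to 0.42), at 204 CPM in liver and 221 CPM in spleen, with no call. Penk, the proenkephalin gene, was at 26.6 CPM in liver and 142 CPM in spleen (−2.42), with 29 of its 39 spleen UMIs in 1 cell of clone 2, and without that clone its ratio was 0.08.

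Clones 1, 2, 4 and 6, each with at least 5 cells per organ, showed what was shared and what was not. Of these, clones 1 and 2 have the same TRB chain and may be 1 lineage. Junb was higher in liver in all 4, at 1811 against 211 CPM in clone 1, 2599 against 503 in clone 2, 3836 against 515 in clone 4 and 2767 against 269 in clone 6, with intervals of the ratio above 0. Hspa1a did the same, at 1064 CPM in liver against 44.7 in spleen in clone 4 and 2324 against 35.1 in clone 1. Itga4 was lower in liver in all 4, with ratios of −0.73, −0.90, −0.73 and −0.74, but only that of clone 2 had an interval below 0 (−1.64 to −0.07). Gzma was high in liver in clones 1 and 2 alone, clones 4 and 6 having 1 UMI each. Tox was at 594 CPM in liver and 738 in spleen in clone 1 and at 392 and 469.8 in clone 4, while clone 6 had 1 UMI in liver and 0 in spleen.

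The lists not yet named had calls in both directions or few calls, where 6.82% of all genes were higher and 6.41% lower. Of 9 chemokine and cytokine genes, 3 were higher and 2 lower. The counts higher and lower were, for transcription factors, 6 and 3 of 19, for apoptosis and survival genes 5 and 1 of 13, and for T cell receptor signalling genes 4 and 4 of 15. Interferon response genes had 2 higher (Isg15 at 1.31) and 4 lower of 11, with a median of −0.53 in the summed cells and of 0.48 with each clone counted once. Memory and bystander-activated genes had 1 higher and 3 lower of 10, chemokine receptors and integrins 1 and 5 of 10, cytokine receptors 1 and 2 of 10, glycolysis genes 2 and 0 of 11, NK receptors 0 and 1 of 4, and the CD8 T cell identity list 1 (Cd3g) and 3 (Cd247, Cd8b1 and Lat) of 10. None of these 4 identity genes kept its call without clones 1 and 2. No member of the 14 mitochondrial oxidation and 12 MHC class I genes was called.

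**Figure D4:**
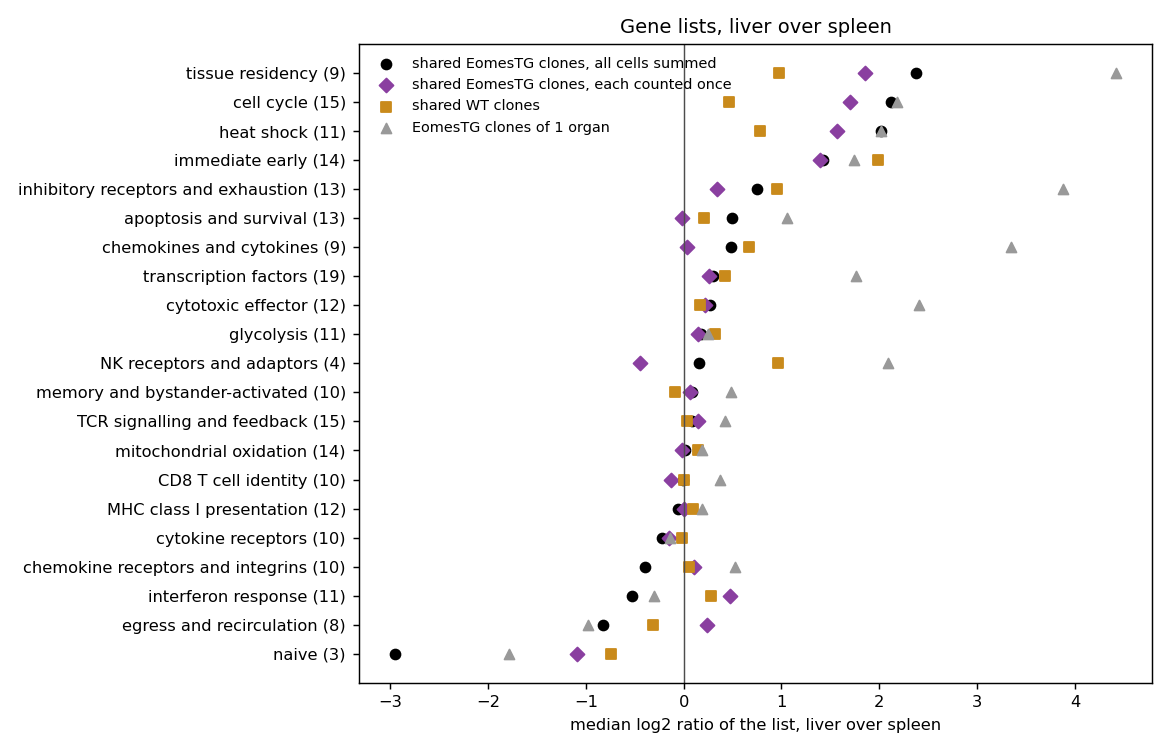
Median log2 ratio of liver over spleen for each gene list, with the number of genes compared in the shared EomesTG clones in parentheses. Black circles sum all cells of shared EomesTG clones, purple diamonds count each clone once, orange squares are shared WT clones and grey triangles EomesTG clones of 1 organ; the inhibitory receptor list stands at 0.75 in shared EomesTG clones and 3.88 in EomesTG clones of 1 organ, which differ in the genes that could be compared.

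Cells of EomesTG clones found in 1 organ come from the same libraries. Between them, 2367 of 10544 genes (22.4%) were higher in liver and 1000 (9.48%) lower, in a comparison of more cells. A shared clone has at least 2 cells by definition, while the 4090 spleen cells of spleen-only clones fell in 4048 clones. Being shared was therefore not told apart from clone size. Pdcd1 had a log2 ratio of 0.58 (0.25 to 0.92) in shared clones and 5.87 (5.66 to 6.10) in clones of 1 organ. Gzma had 4.30 and 8.04, Cxcr6 2.86 and 5.28, Gzmb 1.37 and 6.51, and Ifng 1.73 and 6.15. These are 5 of the genes compared, and the difference of the ratios was not tested. Pdcd1 was at 462 CPM in shared and 482 CPM in liver-only clones of the liver, but at 309.8 CPM in shared and 8.22 CPM in spleen-only clones of the spleen. The shared clones other than 1 and 2 were at 142 CPM in liver and 167 CPM in spleen, so the closeness to liver-only clones rests on this pair. Ccl5 was at 47362 and 25692 CPM in liver, and at 35948 and 1720 CPM in spleen. Over all genes, liver members set against liver-only clones were higher in 450 of 9667 genes (4.66%) and lower in 550 (5.69%).

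Spleen members of the shared clones, set against spleen cells of spleen-only clones, had higher levels of 1278 of 9587 genes (13.3%) and lower levels of 281 (2.93%). A Ccl5 UMI was found in 94.0% of these members and in 35.3% of the spleen-only cells. Sharing was not told apart from clone size here either. Higher genes included 11 of 13 cytotoxic effector genes (median log2 ratio 4.13) and 10 of 12 inhibitory receptor genes (median 3.16), and 11 of 12 naive genes were lower (median −2.21). The inhibitory receptor gene Tigit was at 266 CPM against 9.53 CPM, a log2 ratio of 4.80, Fasl 5.13 (4.42 to 5.81) and Cx3cr1 5.79 (5.16 to 6.41). No shared-clone cell met the same definition of a naive phenotype: 0 of 406 in liver allow a share of up to 0.739%, and 0 of 67 in spleen up to 4.48%. Of cells of clones of 1 organ, 4.39% in liver and 21.6% in spleen met it. Ribosomal protein genes took 22.6% of UMIs in liver members and 25.1% in spleen members, against 27.4% and 40.6% in clones of 1 organ.

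**Figure D5:**
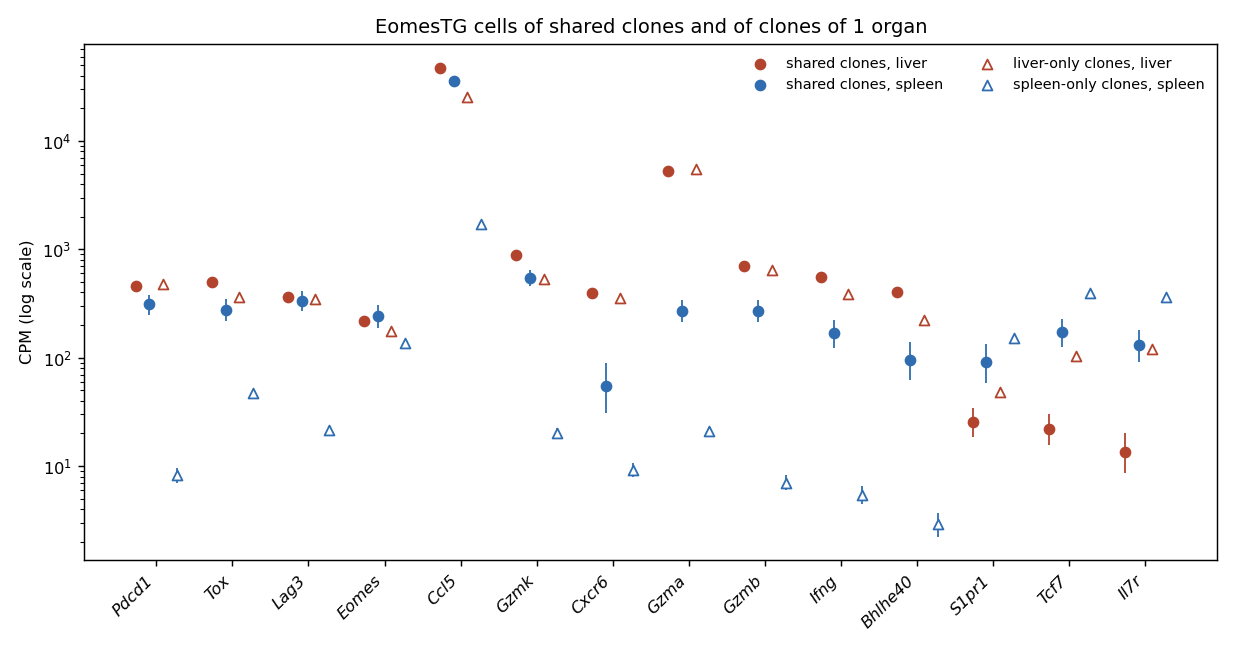
Level of 14 genes in CPM (log axis) in EomesTG cells of shared clones (filled circles) and of clones of 1 organ (open triangles), liver in red and spleen in blue, with exact 95% Poisson intervals. For Pdcd1 the shared clones stand at 462 CPM in liver and 309.8 CPM in spleen, and spleen-only clones at 8.22 CPM.

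Clones shared by the organs of WT mice were set beside them: 63 clones with 295 liver and 131 spleen cells. There, 411 of 5601 genes (7.34%) were called higher in liver and 166 (2.96%) lower. Pdcd1 was at 462 CPM in liver and 309.8 in spleen in EomesTG clones, and at 62.9 and 56.5 CPM in WT clones. The EomesTG levels without clones 1 and 2 were 142 CPM in liver and 167 CPM in spleen. The log2 ratio of Gzma was 4.30 (3.97 to 4.65) in EomesTG clones and 0.49 (0.40 to 0.58) in WT clones, where spleen cells were at 1780 CPM. The EomesTG ratio without clones 1 and 2 was 2.53 (2.14 to 2.94), with liver cells at 1511 CPM. Cxcr6 had 2.86 and 0.64, WT clones being at 197 CPM in liver and 126 CPM in spleen. Rgs1 had 2.38 in EomesTG and 2.88 in WT clones, and Bhlhe40 2.09 and 2.85. Cell cycle genes were higher in 10 of 15 in EomesTG clones and in 4 of 16 in WT clones, where spleen cells also expressed them: Cdk1 was at 101 CPM in WT liver and 77.3 CPM in WT spleen. The difference between the genotypes was not tested.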

How the data were processed

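RNA and receptor libraries were made with a 10x Genomics 5′ kit, per the labels' protocols. Cell Ranger and the build mm10 are named in the submitters' processing notes, and the matrix headers give software version 3.1.0. The authors deposited raw UMI counts per gene and cell, and contig tables with UMI counts per receptor chain, which were used as a filter and ranking only. The members, gene lists and tests were chosen with earlier results of these data known.

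From the counts, cells with at least 500 UMIs, 300 genes and under 10% mitochondrial UMIs were kept, and UMIs were summed per organ over the cells of shared clones (CPM, exact Poisson intervals). Ratios have exact conditional binomial 95% intervals. Genes needed 50 UMIs over both organs, and called means 1.5-fold with the interval on that side. Against 0 UMIs, 3 counts over the group were used. No p-value was computed, since each organ is 1 library. The planned description of clones with 10 cells per organ found none, and clones with 5 were used.

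Genes named were the 10 highest and 10 lowest by interval bound among called genes (without receptor, mitochondrial, ribosomal, sex-linked, unnamed and other-cell marker genes), fixed genes (Eomes, Pdcd1, Cxcr6, Gzma and S1pr1 among them), up to 4 called members of each list, and the 5 each way seen in most clones; other list members that the text names were chosen after their values were seen. Alternatives changed the filters, the clone definition, the weight of clones, the scaling and the thresholds. No doublet caller was run, and barcodes with a second TRB chain were left out as an alternative. The ratio was run on simulated Poisson counts drawn from the pooled levels. These had no added spread between cells or clones, so that run cannot show how the intervals fare with such spread. Python 3.11.15, numpy 2.4.6, pandas 2.3.3 and scipy 1.17.1 were used, with GENCODE M21 on GRCm38 for positions. Some genes that this rule names are not reported here. The definition of naive-phenotype cells was chosen after the data were seen.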

Additional observations from a re-analysis of the deposited data

How the results depend on the processing

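Of 8305 values recomputed under 45 settings, 8062 stayed close to the reported value or on its side of the call, 229 moved and 14 reversed. The number of shared clones fell to 8, with 39 spleen cells, when at least 2 cells were required in each organ. Without clone 1 there were 173 liver cells, with 198 genes higher in liver and 145 lower; without clones 1 and 2, a setting added after the data were seen, there were 98 liver cells, with 145 higher and 73 lower. Leaving out each clone in turn gave 198 to 340 genes higher and 145 to 319 lower, with 27 clones left each time. At least 200 UMIs gave 148 higher and 77 lower, at least 10 UMIs gave 491 lower, a 2-fold threshold gave 143 lower, and cells thinned to 2000 UMIs gave 169 higher and 133 lower. The first of these compares fewer genes, the second more, the third asks for a larger ratio and the last has fewer counts. Scaling by the median of ratios gave 420 higher and 215 lower (66.1% of calls higher), and by totals without receptor, mitochondrial and ribosomal genes 278 and 396 (41.2%), against 51.6% with all UMIs.

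Reversed log2 ratios with each clone counted once were Cd3g −0.060, Cd8b1 0.078, Il7r 0.017, Klf3 0.97, Ly6c2 0.50, S1pr1 0.40, Tpi1 −0.32 and the egress list median 0.24. Left out in turn, single clones moved Il7r between −0.24 and 0.32, S1pr1 between −0.05 and 0.72 and Ly6c2 between −0.10 and 0.86. Cd3g (−0.11 to 0.02) and Tpi1 (−0.54 to 0.58) also crossed 0, while Cd8b1 and Klf3 did not. Without clones 1 and 2, the reversed ratios of summed cells were Cd8b1 0.0083 and Ifi27l2a 0.074. Leaving out each clone in turn put Penk between −2.64 and 0.078, the upper value being that without clone 2. The ratios counted once reversed for Birc5 with TRB chains alone (−0.73) and for Glipr2 (0.16) and Klf3 (−0.56) with at least 2 cells per organ. The cause was not tested.

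No paired analysis was possible because each organ is 1 library. Spleen depth limits the comparison: 67 cells with 274367 UMIs, so that 0 UMIs allow up to 10.9 CPM, against 1.70 CPM in liver. Most clones have 1 spleen cell (17 of 28), and some spleen levels rest on 1 cell, as given for Xcl1, Penk, Gzma and Nr4a2. In liver, 11 of 28 clones have 1 cell, which weighs on levels with each clone counted once, as given for Il7r and Ly6c2.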
